A study of Mus musculus with 6 samples.

Results

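Accessible regions around 45 genes of DNA replication and origin licensing were compared in bone marrow B-cells that had divided little (quiescent) or much (proliferating). A region (a peak of ATAC-seq signal) was assigned to one of these genes when it overlapped the gene body or, where it overlapped no protein-coding gene, when the gene was the nearest protein-coding gene within 100 kb. This gave 192 of the 97124 deposited peaks, 138 of them over a gene body and 54 between genes, and each of the 45 genes had at least 1 peak. The count per gene ran up to 29 (Prim2) with a median of 3, and 7 genes had a single peak. Peaks within 1 kb of either end of the annotated gene, called gene-end peaks here, numbered 66 and belonged to 43 genes, and they were set apart and compared with the 16702 gene-end peaks of other protein-coding genes. Orc1 and Orc4 had no gene-end peak because the RefSeq gene span reaches beyond the peaks at their listed starts (by 2921 bp for Orc1 and by 2720 bp and 2069 bp for a pair of peaks of Orc4), and these start peaks counted as lying inside the gene.

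ATAC-seq measures open chromatin through a transposase that inserts sequencing adapters where DNA is exposed. The cells came from PEtg mice, which are known to carry a transgene for the PAX5-ELN fusion of B-cell leukemia, so both groups share that allele and no cells without it entered the comparison. H2B-GFP is a fluorescent histone that is diluted at each division. Cells that kept much of it (H2B-GFP high) were labelled quiescent and cells that had lost it (H2B-GFP low) proliferating, with 3 samples in each group. The sources used here give neither the age of the mice, nor the promoter behind each transgene, nor how many mice a sample stands for. A p-value below therefore reflects variation among 6 samples whose separate origin is unstated and which may be technical replicates.

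A cell may copy its DNA only once per cycle, and this is secured by loading and firing origins at different times. In G1 the origin recognition complex, with Cdc6 and Cdt1, loads the MCM2-7 helicase onto DNA, a step called licensing that geminin blocks later in the cycle. In S phase the Cdc7-Dbf4 kinase and cyclin E-Cdk2 activate the helicase, which joins Cdc45 and GINS, and primase, polymerases, the PCNA clamp with its loader RFC, the RPA complex, Fen1 and Lig1 carry out the synthesis. Many of these genes are targets of E2F factors, which the retinoblastoma family restrains in cells outside the cycle.

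Promoter sequences were read from RefSeq (GRCm38.p6) for the 36 of the 45 genes with an entry. An E2F-type motif (TTTCCCGC, TTTGGCGC, TTTCGCGC or TTTGCCGC on either strand, in the 250 bases before to 50 after a start) was found in 15 of these 36 genes (41.7%), against 575 of 17491 protein-coding genes (3.3%). Counted per promoter, 33.3% of the 45 listed promoters of these genes held one, against 2.9% of all 21262. The GC box GGGCGG was present in 73.3% of them against 46.2%, the CCAAT box in 51.1% against 38.2%, and the CHR element (TTTGAA or TTCGAA) in 22.2% against 17.6%. Matches of different E2F-type letters can overlap each other. The following lines give the 200 bases before the start for 6 genes, with E2F-type matches in capitals: the helicase genes Mcm6 and Mcm5, in which matches overlap into a run of 12 bases that in one gene is the reverse complement of that in the other, the origin and licensing genes Orc1 and Cdc6, and the genes whose strongest gene-end peak had the lowest and the highest fold change (Prim1 and Rpa2), neither of which held these letters.
Mcm6 (chr1:128359706-128359905, minus strand): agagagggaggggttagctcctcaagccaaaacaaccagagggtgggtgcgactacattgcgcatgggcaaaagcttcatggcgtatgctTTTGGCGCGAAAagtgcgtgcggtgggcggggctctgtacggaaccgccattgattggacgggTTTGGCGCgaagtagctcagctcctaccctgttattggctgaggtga
Mcm5 (chr8:75109309-75109508, plus strand): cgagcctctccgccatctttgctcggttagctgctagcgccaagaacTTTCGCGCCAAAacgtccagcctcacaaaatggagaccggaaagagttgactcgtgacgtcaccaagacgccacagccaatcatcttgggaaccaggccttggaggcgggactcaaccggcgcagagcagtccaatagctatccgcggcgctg
Orc1 (chr4:108579254-108579453, plus strand): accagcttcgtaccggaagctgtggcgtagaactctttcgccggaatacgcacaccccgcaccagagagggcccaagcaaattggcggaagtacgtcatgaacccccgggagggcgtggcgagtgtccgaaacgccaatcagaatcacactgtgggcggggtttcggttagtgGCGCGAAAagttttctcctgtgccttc
Cdc6 (chr11:98907951-98908150, plus strand): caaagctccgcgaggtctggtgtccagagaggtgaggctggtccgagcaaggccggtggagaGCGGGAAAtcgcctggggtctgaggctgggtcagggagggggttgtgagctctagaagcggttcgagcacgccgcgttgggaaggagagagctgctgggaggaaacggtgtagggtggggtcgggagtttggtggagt
Prim1 (chr10:128015015-128015214, plus strand): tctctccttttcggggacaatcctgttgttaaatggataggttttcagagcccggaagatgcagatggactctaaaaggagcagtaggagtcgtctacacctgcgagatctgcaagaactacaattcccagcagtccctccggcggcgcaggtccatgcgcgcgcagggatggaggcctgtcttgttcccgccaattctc
Rpa2 (chr4:132768160-132768359, plus strand): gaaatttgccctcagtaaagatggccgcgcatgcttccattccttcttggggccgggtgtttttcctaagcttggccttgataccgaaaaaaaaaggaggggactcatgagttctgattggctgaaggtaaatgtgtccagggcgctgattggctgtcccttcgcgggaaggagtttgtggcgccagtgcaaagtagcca
In Mcm6 the first match begins 110 bases before the start and the last one 47 bases before it. The Orc1 match begins 27 bases before the start and the Cdc6 match 138 bases before it. Of the 45 listed starts, 42 lay inside a deposited peak.

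The authors deposited 1 scaled signal value per peak and sample, with nearly equal totals per sample. The reads behind these values were estimated at 8051892 (proliferating sample 1) to 48841888 (proliferating sample 3) in peaks, with 14020952 to 28188358 in the quiescent samples, so the proliferating group holds both the shallowest and the deepest library. As a check of the cell type, all 12 B-cell marker genes had a gene-end peak, against 7 of 12 T and NK, 4 of 12 myeloid, 4 of 12 erythroid and megakaryocyte, and 8 of 9 plasmacytoid dendritic and plasma cell markers. The strongest gene-end peak of a marker gene had a median signal of 1546 for the B-cell list, 355 for the erythroid and megakaryocyte, 297 for the plasmacytoid dendritic and plasma cell, 106 for the myeloid and 46.8 for the T and NK list. No peak lay at the myeloid markers Mpo, Elane, S100a8 and S100a9, at Cd3e or at Klf1.

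Fold changes below are differences of log2(signal + 1), quiescent minus proliferating, so that a negative value means less signal in quiescent cells. A peak was called when limma with Benjamini-Hochberg adjustment over all 87411 tested peaks gave an adjusted p under 0.05. Of the 192 peaks, 182 were tested and 10 fell under the filter on weak peaks, among them 1 gene-end peak of Gins2. In bulk ATAC-seq, fewer cells with an open site and less opening per cell cannot be told apart.

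Signal at the gene ends of replication genes was mostly lower in quiescent cells, by a small amount. Of the 65 tested gene-end peaks, 55 (84.6%) had a fold change below 0, and the median was -0.19 (47 to 60 peaks below 0 under 5 other scalings of the data, the fewest with voom on the estimated reads scaled by median of ratios). Among the 15751 tested gene-end peaks of other genes, 60.3% lay below 0 and the median was -0.08, and over all tested peaks 50.7% lay below 0 and the median was -0.01. In 18 of the 65 peaks (27.7%) the 3 quiescent values did not overlap the 3 proliferating values, and all 18 were lower in quiescent cells. Values of the groups did not overlap at 24.7% of other gene-end peaks, 16.5% being lower in quiescent cells, and at 30.4% of all tested peaks (14.9% lower). Few of these differences passed the test: 2 peaks were called lower and 0 higher with limma (3.08% of 65), against 2.8% of other gene-end peaks (1.33% higher and 1.47% lower) and 6.72% of all tested peaks. The share called was therefore near the background. An unadjusted p under 0.05 was reached by 14 of the 65 peaks (21.5%), all lower, against 13.8% of other gene-end peaks (8.75% lower) and 24.2% of all tested peaks (11.1% lower). With the replicate number as a block, 7 were called lower and 0 higher, against 8.77% of other gene-end peaks (3.62% higher and 5.15% lower). Voom on the estimated reads called 3 of the 65 lower under median-of-ratios scaling and 7 lower under totals, and 0 higher under either. Among other gene-end peaks it called 5.37% higher and 1.94% lower under the former and 1.94% higher and 7.22% lower under the latter, and over all tested peaks 9.98% and 3.99%, and 5.01% and 9.87%.

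**Figure D1:**
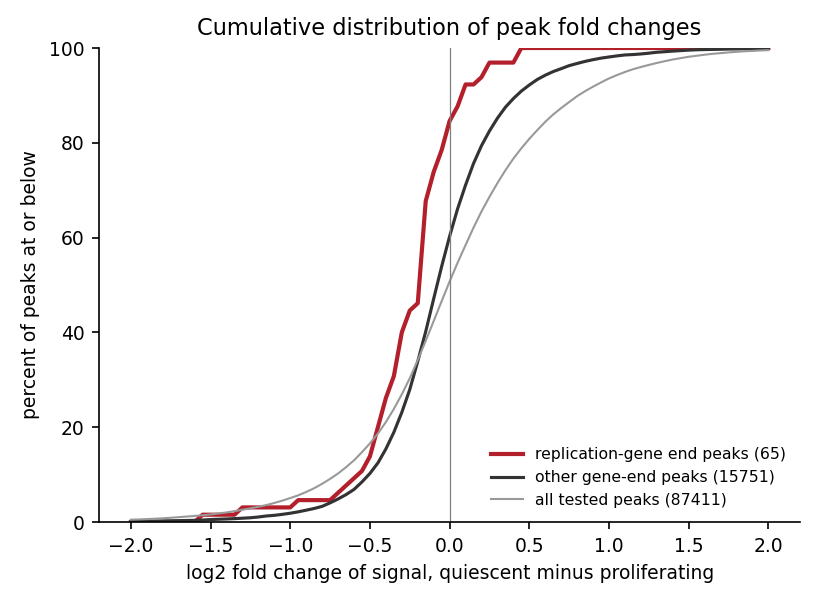
Cumulative distribution of log2 fold changes (horizontal axis, quiescent minus proliferating) as the percent of peaks at or below each value (vertical axis), for the 65 gene-end peaks of replication genes, 15751 other gene-end peaks and all 87411 tested peaks. The curve of the replication genes crosses 0 at 84.6%, above the 60.3% of other gene-end peaks and the 50.7% of all tested peaks.

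The comparison was repeated with other peaks of similar strength and with peaks at starts alone. Other gene-end peaks within the middle range of signal of these 65 (107 to 441, n = 6009) had a median fold change of -0.10, with 64.8% below 0. The 37 gene-end peaks within 1 kb of a listed start of a replication gene had a median of -0.18 and 32 lay below 0 (25 with voom and median of ratios). Other gene-start peaks had a median of -0.08 with 60.9% below 0 (n = 12086). None of the 37 was called by limma, against 2.05% of other gene-start peaks, while 7 (18.9%, all lower) had an unadjusted p under 0.05, against 12.5% (8.41% lower). With the block 2 (5.41%) were called lower, beside 4.67% of other gene-start peaks. Voom called 1 of the 37 lower under median-of-ratios scaling (2.7%, beside 1.66%) and 2 lower under totals (5.41%, beside 6.81%). Of the 65 gene-end peaks, 16 (24.6%) also lay within 1 kb of an end of another gene, as do 16.0% of other gene-end peaks. All 16 shared peaks lay below 0 (11 with voom and median of ratios, median -0.18 on deposited values), and so did 39 of the 49 that were not shared (median -0.19).

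The difference rested on the samples unevenly. As the deviation of log2(signal + 1) from the mean of the 6 samples, the median over the 65 peaks was -0.14, -0.05 and -0.16 in quiescent samples 1, 2 and 3. It was -0.16 in proliferating sample 1 and 0.17 and 0.32 in proliferating samples 2 and 3. Proliferating sample 1, the shallowest library, thus lay among the quiescent samples, and proliferating sample 3, the deepest, was the highest of the 6 at 35 of the 65 peaks and the lowest at none. At other gene-end peaks the proliferating samples had the same order with smaller values, -0.06, 0.06 and 0.14 in samples 1, 2 and 3, while the quiescent samples lay at -0.06, -0.01 and -0.03. Among same-numbered samples, quiescent sample 1 was below proliferating sample 1 at 36 of the 65 peaks, quiescent sample 2 below proliferating sample 2 at 55, and quiescent sample 3 below proliferating sample 3 at 60. The corresponding shares of other gene-end peaks were 50.3%, 57.5% and 66.9%. Depth moved with the values within the proliferating group, and its part in the result was not tested. Without proliferating sample 1 the median was -0.33, with other gene-end peaks at -0.14, and without proliferating sample 3 it was -0.10, with other gene-end peaks at -0.03.

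**Figure D2:**
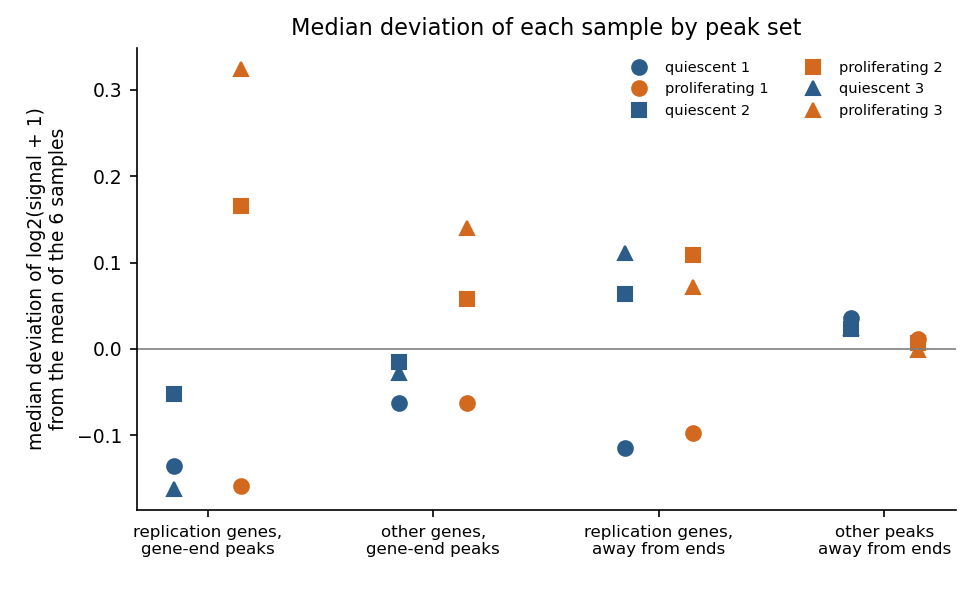
Median deviation of log2(signal + 1) from the mean of the 6 samples (vertical axis) for each sample, at gene-end peaks and at peaks away from gene ends of replication genes and of all others. At gene-end peaks of replication genes, proliferating samples 2 and 3 lie at 0.17 and 0.32 and proliferating sample 1 at -0.16, beside the 3 quiescent samples.

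Signal at marker genes of other cell types was compared between the groups as well. Summed signal at the strongest gene-end peaks of the 4 myeloid markers with one was 726 to 903 in quiescent and 465 to 535 in proliferating samples. For the 7 T and NK markers it was 2904 to 3175 against 2368 to 2483, for the 8 plasmacytoid dendritic and plasma cell markers 2196 to 2433 against 1640 to 2043, for the 4 erythroid and megakaryocyte markers 1806 to 2148 against 1702 to 1943, and for the 12 B-cell markers 20684 to 22624 against 21793 to 26438. The myeloid, T and NK, and plasmacytoid dendritic and plasma cell sums did not overlap between the groups. Limma called 1 marker peak higher in each of these 3 lists, 1 erythroid and megakaryocyte marker peak lower and 2 B-cell marker peaks lower. A different mixture of cells and a different opening within the B-cells cannot be told apart here, and their part in the replication-gene values was not tested.

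Each gene was then described by its strongest gene-end peak, the one with the highest mean signal over all 6 samples. Its fold change was below 0 in 39 of 43 genes (30 to 39 under the 5 other scalings, the fewest again with voom and median of ratios), with a median of -0.25 and a range from -0.99 (Prim1) to 0.19 (Rpa2). The 4 genes above 0 were Rpa2, Cdc6, Cdc25a and Rfc2. None of the 43 was called by limma. An unadjusted p under 0.05 was found for 11 (25.6%), all lower, and the groups did not overlap in 13 (30.2%), all lower, against the 13.8% and 24.7% of other gene-end peaks given above. Those other peaks were not picked by strength, and their median signal was 136, against 342 for the 43. Among the 6009 other gene-end peaks of middle signal described above, the shares were 15% (10.2% lower) and 26.4%. No other gene was reduced to its strongest peak. With the block 5 were called lower, those of Mcm6, Gins2, Gins4, Prim1 and Rpa1. This was 11.6%, beside 5.15% called lower at other gene-end peaks and 6.07% at those of middle signal. Voom called 1 lower under median-of-ratios scaling (2.33%, beside 1.94%) and 5 lower under totals (11.6%, beside 7.22%). In what follows, the lowest and highest gene of each role are those of the fit to deposited values.

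**Figure D3:**
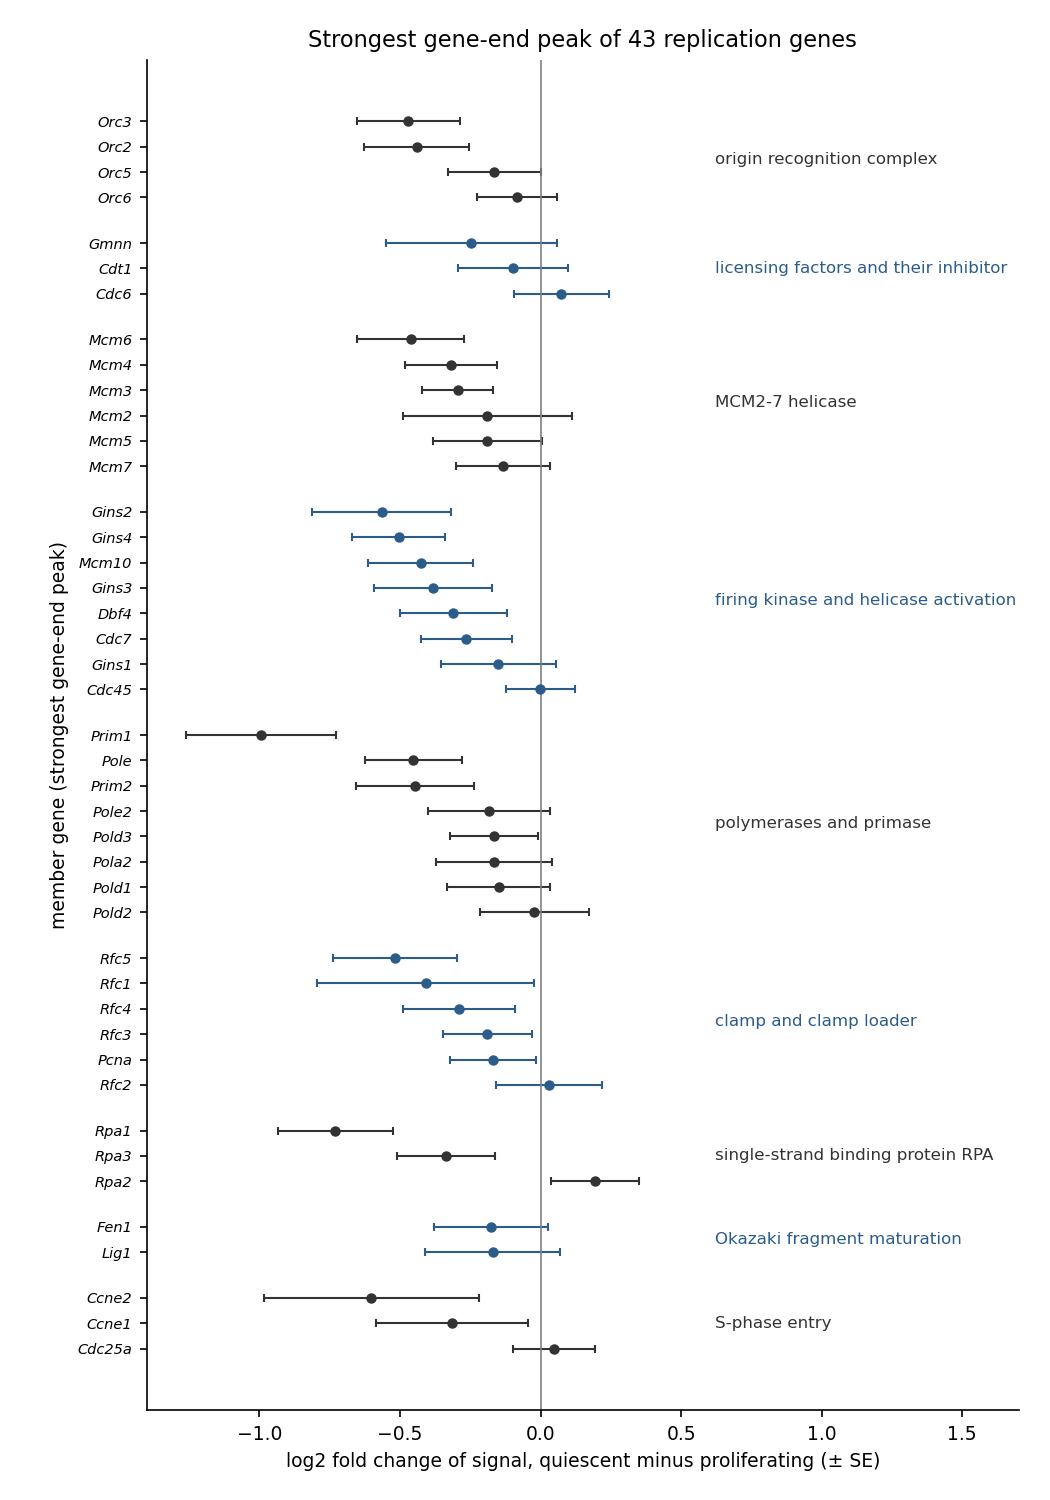
Log2 fold change (horizontal axis, quiescent minus proliferating, with its standard error as bars) of the strongest gene-end peak of each of 43 replication genes, grouped by role and sorted within a role. In 39 genes the point lies below 0 (in 30 with voom and median-of-ratios scaling), from -0.99 at Prim1, and in 4 genes above it, up to 0.19 at Rpa2.

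The origin recognition complex binds origins and starts licensing. All 4 of its gene-end peaks lay below 0, with a median fold change of -0.30, and the groups did not overlap in 3. Under voom with median-of-ratios scaling 2 of the 4 were below 0. Limma called none, with 2 at an unadjusted p under 0.05, and voom called none under either scaling. Orc3 had the lowest value. Its peak at chr4:34613937-34615921, which covers the start and also lies at an end of Rars2, had quiescent signals of 199.7, 236 and 193 and proliferating signals of 339, 255 and 279.7, each in the order of sample number. Every quiescent value was below every proliferating one, and the fold change was -0.47 ± 0.18 (SE, n = 3 and 3) with an adjusted p of 0.16. Orc6 was the highest, with signals of 345, 335 and 359 against 361, 374 and 366. These groups did not overlap either, but by a narrow margin (fold change -0.08 ± 0.14 (SE, n = 3 and 3), adjusted p = 0.77). Orc2 and Orc5 had fold changes of -0.44 and -0.16. The start peak of Orc1, the largest subunit, pointed the other way, with signals of 895, 1145 and 902 against 675, 872 and 955. The groups overlapped there (fold change 0.24 ± 0.17 (SE, n = 3 and 3), adjusted p = 0.43), and this peak also lies at an end of Prpf38a. The stronger start peak of Orc4 had a fold change of -0.16.

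Cdc6 and Cdt1 load the helicase, and geminin (Gmnn) inhibits Cdt1. Of their 6 gene-end peaks, 5 lay below 0 (3 with voom and median of ratios), with a median of -0.14. Limma called none, with 1 at an unadjusted p under 0.05, and voom called none under either scaling. At the Cdc6 start (chr11:98907230-98908541) the quiescent signals of 835, 912 and 708 stood against proliferating signals of 628, 878 and 839.8, with overlapping groups and a fold change of 0.07 ± 0.17 (SE, n = 3 and 3), adjusted p = 0.83. At the Cdt1 start (chr8:122566673-122569107) they were 369, 372 and 398 against 310.5, 422 and 511, also overlapping (fold change -0.10 ± 0.20 (SE, n = 3 and 3), adjusted p = 0.80). The direction at each of these starts turned with the sample left out. Gmnn had 68.3, 78.8 and 76.6 against 55.8, 105 and 118, where proliferating sample 1 was the lowest of all 6 and the other two proliferating samples were the highest (fold change -0.25 ± 0.30 (SE, n = 3 and 3), adjusted p = 0.67).

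Inside Cdc6, in contrast, a peak at chr11:98917052-98918629, 8901 bp from the start, rose in quiescent cells. Its quiescent signals were 445, 624 and 551 and its proliferating signals 278, 339 and 273, with no overlap (fold change 0.85 ± 0.18 (SE, n = 3 and 3), adjusted p = 0.027). A pair of peaks beyond the other end of Cdc6 had fold changes of -0.46 and -0.15. Cdc6 thus held a called higher peak inside and uncalled values of both signs at its ends.

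The MCM2-7 helicase unwinds DNA at the fork. All 7 of its gene-end peaks lay below 0 (6 with voom and median of ratios, where Mcm7 was above), with a median of -0.30. Limma called none of them and voom none under either scaling, while 2 had an unadjusted p under 0.05 and 1, at Mcm6, was called with the block. Mcm6 had the lowest strongest peak. Its start region, chr1:128357304-128360460, holds the E2F-type matches shown above and had signals of 406, 539 and 479 against 504, 727 and 751. Proliferating sample 1 lay within the quiescent range and the other two above it, for a fold change of -0.46 ± 0.19 (SE, n = 3 and 3) and an adjusted p of 0.18 (0.029 to 0.43 over 14 alternatives, the lowest being that with the block). Mcm3 had tighter groups, 572, 592 and 573 against 673, 728 and 734, which did not overlap (fold change -0.30 ± 0.12 (SE, n = 3 and 3), adjusted p = 0.19). Mcm4, whose peak is shared with Prkdc, had 441, 430.5 and 356 against 454, 496 and 584, again without overlap (fold change -0.32 ± 0.16 (SE, n = 3 and 3), adjusted p = 0.27). The remaining subunits overlapped. Mcm2 had 198, 156 and 129.7 against 115, 208 and 249 (fold change -0.19 ± 0.30 (SE, n = 3 and 3), adjusted p = 0.75). Mcm5 had 464, 488 and 424 against 395, 566 and 637 (fold change -0.19 ± 0.19 (SE, n = 3 and 3), adjusted p = 0.60). Mcm7, with a peak shared with Ap4m1, had 640.1, 699.7 and 658 against 581, 763 and 876 (fold change -0.13 ± 0.17 (SE, n = 3 and 3), adjusted p = 0.68). In Mcm2, Mcm5 and Mcm7 proliferating sample 1 was the lowest of the 6 samples.

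**Figure D4:**
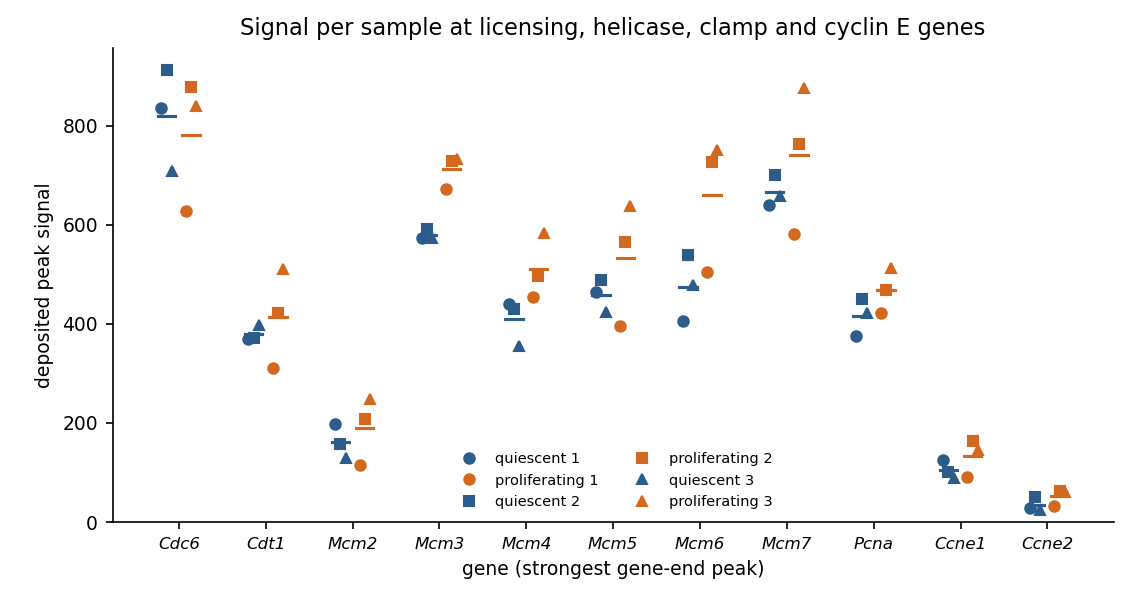
Deposited signal (vertical axis, starting at 0) in each sample at the strongest gene-end peak of 11 licensing, helicase, clamp and cyclin E genes, with bars at the group means and symbols by replicate number. Only at Mcm3 and Mcm4 do the 3 quiescent points lie wholly below the 3 proliferating points.

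Cdc7 and its activator Dbf4 phosphorylate the loaded helicase, and Mcm10, Cdc45 and the GINS subunits turn it into the moving fork. All 9 gene-end peaks of this group lay below 0 (7 to 9 under the 5 other scalings), with a median of -0.31. None was called by limma, 3 had an unadjusted p under 0.05, and voom called 0 under median-of-ratios scaling and 1 lower under totals. With the block, 2 were called lower, at Gins2 and Gins4. Gins2 was the lowest by its strongest gene-end peak, chr8:120581368-120582670, which is shared with Gse1. It had 521, 354 and 437 against 942, 524 and 531, where proliferating sample 1 was far above the other five samples (fold change -0.57 ± 0.25 (SE, n = 3 and 3), adjusted p = 0.20). Without proliferating sample 1 the fold change was -0.29 (adjusted p = 0.35), and with voom and median of ratios -0.17 (adjusted p = 0.69). Its other tested end peak, of similar strength, had a fold change of -0.07. Cdc45 was the highest, with 1649, 1623 and 1422 against 1391, 1615 and 1699, and the groups were intermixed (fold change -0.001 ± 0.12 (SE, n = 3 and 3), adjusted p = 0.997). Gins4 (-0.50), Mcm10 (-0.43) and Gins3 (-0.38) had fold changes below 0 with groups that did not overlap. Those of Dbf4 (-0.31), Cdc7 (-0.26) and Gins1 (-0.15) had overlapping groups.

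Beyond the Cdc7 gene, which has 13 peaks, 2 intergenic peaks moved in opposite directions. The nearer one, 9933 bp from the gene at chr5:106994373-106995349, rose in quiescent cells with signals of 139, 207 and 226 against 112, 69.6 and 77.7 (fold change 1.13 ± 0.27 (SE, n = 3 and 3), adjusted p = 0.041). The farther one, 28924 bp away at chr5:107013364-107013910, fell, with 77.4, 71.4 and 66.3 against 144, 175 and 162 (fold change -1.15 ± 0.20 (SE, n = 3 and 3), adjusted p = 0.017). Neither pair of groups overlapped. Both peaks are assigned to Cdc7 by distance alone.

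Polymerases and primase copy the strands. Of 13 gene-end peaks 12 lay below 0 (11 to 13 under the 5 other scalings), with a median of -0.18, and 1 was called (2 with the block). On deposited values the largest fold change of any strongest gene-end peak was that of Prim1, the catalytic primase subunit, at chr10:128014909-128015716. Signals were 36.8, 50.8 and 63.4 (quiescent) against 90.0, 108 and 99.8 (proliferating). No values overlapped, and the fold change was -0.99 ± 0.27 (SE, n = 3 and 3) with an adjusted p of 0.058, just outside the threshold (0.014 to 0.19 over 14 alternatives, and called with the block and with voom under both scalings). Pold2, an accessory subunit of polymerase delta, was at the other extreme, with 170.2, 151 and 135 against 137, 158 and 169 and a fold change of -0.02 ± 0.19 (SE, n = 3 and 3), adjusted p = 0.96. Its groups were intermixed. Pole had a fold change of -0.45 at its strongest gene-end peak, which is shared with Pxmp2, and the groups did not overlap. Prim2 (-0.45), Pole2 (-0.18), Pold3 (-0.17), Pola2 (-0.17) and Pold1 (-0.15) had overlapping groups.

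Prim2, the large primase subunit, spans a long gene and holds 29 of the 192 peaks, so it weighs heavily in any count of peaks away from gene ends. A weak peak within 1 kb of one end (chr1:33668609-33668887) fell in quiescent cells, with signals of 28.3, 15.0 and 14.9 against 47.4, 73.7 and 54.2 (fold change -1.58 ± 0.37 (SE, n = 3 and 3), adjusted p = 0.037). It rests on 9 to 30 estimated reads per quiescent sample. A pair of peaks inside the gene rose. At chr1:33592252-33592642 signals were 140.0, 156 and 127 against 72.0, 62.9 and 69.9 (fold change 1.04 ± 0.21 (SE, n = 3 and 3), adjusted p = 0.024). At chr1:33502776-33503281 they were 78.9, 81.6 and 62.8 against 33.4, 37.2 and 38.8 (fold change 1.005 ± 0.25 (SE, n = 3 and 3), adjusted p = 0.049). The peak with the most signal in Prim2, chr1:33577467-33579746, also lies inside the gene and had overlapping signals of 4017, 4209 and 4842 against 4405, 3922 and 3702 (fold change 0.12 ± 0.11 (SE, n = 3 and 3), adjusted p = 0.54). Inside Pole, the catalytic subunit of polymerase epsilon, a peak at chr5:110294778-110295766 rose, with 294, 229 and 335 against 175, 124 and 129.8 (fold change 0.998 ± 0.22 (SE, n = 3 and 3), adjusted p = 0.032).

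PCNA is the sliding clamp, and Rfc1 to Rfc5 form the complex that loads it. Of the 10 gene-end peaks in this group 7 lay below 0 (5 to 9 under the 5 other scalings), with a median of -0.18. Limma called none, with 1 at an unadjusted p under 0.05, and voom called 0 under median-of-ratios scaling and 1 lower under totals. Pcna, whose peak is shared with Cds2, had 375, 450.4 and 421 against 422, 469 and 512 with overlapping groups (fold change -0.17 ± 0.15 (SE, n = 3 and 3), adjusted p = 0.54). Rfc5 was the lowest, with 124, 191 and 147 against 182, 244 and 232, where 1 quiescent value exceeded 1 proliferating value (fold change -0.52 ± 0.22 (SE, n = 3 and 3), adjusted p = 0.19). Rfc2 was the highest, with 284, 242 and 354 against 261, 279.6 and 315 (fold change 0.03 ± 0.19 (SE, n = 3 and 3), adjusted p = 0.94), and its direction turned with the sample left out. Rfc1 (-0.41), Rfc4 (-0.29) and Rfc3 (-0.19) lay between them. The largest fold change on deposited values among the 9 called peaks of the 45 genes was inside Rfc1, at chr5:65299465-65300007, with signals of 80.9, 131 and 87.1 against 13.0, 36.1 and 33.3. The peak rose in quiescent cells by 1.91 ± 0.41 (SE, n = 3 and 3), adjusted p = 0.029, with no overlap of the groups. Proliferating sample 1 holds only 5 estimated reads there. The fold change was 1.46 without that sample, 1.502 with voom and median of ratios and 1.24 with voom and totals, and in each of these the called Prim2 end peak changed more (-1.72, -1.74 and -2.001).

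RPA coats single-stranded DNA at the fork. Of its 5 gene-end peaks 4 lay below 0, also under the 5 other scalings, with a median of -0.34, and 1 was called (2 with the block). That peak lies over the end of Rpa2 opposite its listed start, at chr4:132778677-132779245, and fell in quiescent cells, with signals of 92.7, 77.3 and 57.7 against 185, 211 and 165 (fold change -1.31 ± 0.24 (SE, n = 3 and 3), adjusted p = 0.018). The start of Rpa2, in contrast, had the highest value of the 43 strongest peaks, with 927, 923 and 849 against 634, 871 and 881 and overlapping groups (fold change 0.19 ± 0.16 (SE, n = 3 and 3), adjusted p = 0.49). Rpa1 also had its lower fold change away from the start, without a call. Its strongest gene-end peak, chr11:75300779-75301843, is 46540 bp from the start and had 219, 151 and 171 against 250.2, 311 and 332, with no overlap (fold change -0.73 ± 0.20 (SE, n = 3 and 3), adjusted p = 0.067, 0.020 to 0.21 over 14 alternatives). The start peak of Rpa1 had a fold change of -0.12. Rpa3 had a fold change of -0.34 with groups that did not overlap.

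Fen1 trims and Lig1 seals Okazaki fragments, the short pieces of the lagging strand. All 3 of their gene-end peaks lay below 0 (median -0.17), none had an unadjusted p under 0.05, and voom called none under either scaling. Fen1, at a start shared with Tmem258, had 464, 567 and 473 against 414, 660.4 and 658 (fold change -0.18 ± 0.20 (SE, n = 3 and 3), adjusted p = 0.65). Lig1, at a start shared with Zswim9, had 101, 75.0 and 110.2 against 104, 91.1 and 127 (fold change -0.17 ± 0.24 (SE, n = 3 and 3), adjusted p = 0.72). The groups overlapped at both.

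Cyclins E1 and E2 (Ccne1 and Ccne2) and the phosphatase Cdc25a drive entry into S phase. Their 8 gene-end peaks were split, 4 below 0 and 4 above (6 and 7 below 0 with voom), with a median of -0.13, with none called and none at an unadjusted p under 0.05, and voom called 0 under median-of-ratios scaling and 1 lower, at Ccne2, under totals. Ccne2 had weak signals of 28.2, 49.6 and 24.7 against 32.8, 62.6 and 60.9 (fold change -0.60 ± 0.38 (SE, n = 3 and 3), adjusted p = 0.37). Ccne1 had 125, 101 and 88.0 against 90.9, 163 and 145 (fold change -0.32 ± 0.27 (SE, n = 3 and 3), adjusted p = 0.52). Cdc25a had 714, 684 and 604 against 567, 654 and 720.4 and a fold change on the other side of 0, 0.05 ± 0.15 (SE, n = 3 and 3), adjusted p = 0.88. Groups overlapped in all of these.

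Away from gene ends the fold changes of replication genes lay on both sides of 0. Of 117 tested peaks 66 were below 0 (56.4%, median -0.08, and 63 to 87 peaks under the 5 other scalings, the most with voom and totals), against 48.6% of 71478 other such peaks (median 0.02). Limma called 6 higher and 1 lower (5.98%), beside 7.59% of the other peaks away from gene ends (4.6% higher and 2.99% lower), and the block called 15 higher and 4 lower, beside 20.4% (11.6% higher and 8.8% lower). The balance of the calls turned with the scaling. Voom with median of ratios called 14 higher and 6 lower, beside 11% higher and 4.44% lower of the other peaks, and voom with totals called 8 higher and 12 lower, beside 5.69% and 10.4%. An unadjusted p under 0.05 was reached by 29 of the 117 (24.8%), beside 26.5%. Split by place, the 73 peaks inside the genes had a median of 0.07 with 5 called higher (13 higher and 2 lower with the block). Other peaks inside genes had a median of 0.02, with 4.41% called higher and 2.91% lower (11.1% and 8.69% with the block). The 44 between genes had a median of -0.22 with 1 called in each direction (2.27%, and 2 or 4.55% in each with the block). Other peaks between genes had a median of 0.02, with 4.83% called higher and 3.09% lower (12.2% and 8.94% with the block). Over all 182 tested peaks of the replication genes the calls were 6 higher and 3 lower (4.95%), in 6 genes, against 6.72% of all tested peaks (4.01% higher and 2.72% lower). With the block they were 15 higher and 11 lower, against 18.3% of all tested peaks (10.2% higher and 8.14% lower). All 6 peaks called higher lay away from gene ends, and 2 of the 3 called lower lay at one.

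Each of these 9 calls was lost on leaving out some single samples, as were most calls over all tested peaks. All 9 passed with the block and with voom under median-of-ratios scaling, but none passed without quiescent sample 2 (adjusted p 0.072 to 0.15), without quiescent sample 3 (0.077 to 0.16), without proliferating sample 2 (0.061 to 0.16) or without proliferating sample 3 (0.060 to 0.13). Without quiescent sample 1, 7 passed, and without proliferating sample 1, 8. Over all tested peaks, 5876 calls became 161 and 0 without quiescent samples 2 and 3. They became 790 and 1160 without proliferating samples 2 and 3, so the loss was not particular to these 9 peaks. The peak inside Prim2 at chr1:33502776-33503281 also lost its call with no filter on weak peaks (adjusted p = 0.055), with equal totals (0.051), with quantile normalisation (0.053) and with voom and totals (0.15), where its fold change was 0.58, while the other 8 passed in each of these fits. The direction of all 9 was the same in each of the 14 alternatives, most of which could not have turned it. The groups do not overlap at these peaks, so leaving out a sample or changing the pseudocount keeps the sign. The block and the lack of a filter leave the fold change as it was. Only the scalings and voom could have turned it.

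**Figure D5:**
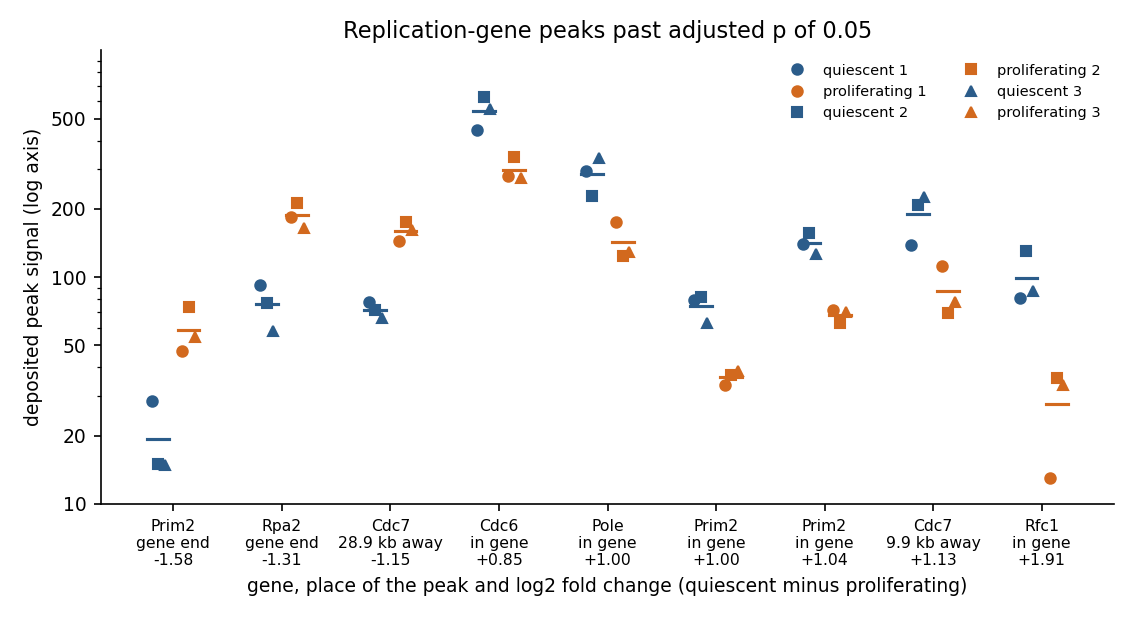
Deposited signal (vertical axis, log scale) in each sample at the 9 called peaks of replication genes, with bars at the group means, symbols by replicate number, and gene, place and log2 fold change under each. In all 9 the 3 quiescent points are apart from the 3 proliferating points, lower in 3 peaks and higher in 6.

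Tested peaks that cover a listed start of a member were also split by the E2F-type motif. This set is not that of the 37 gene-end peaks near a start given above, as it takes in the start peaks of Orc1 and Orc4. A match counted in the promoter window of any gene whose start the peak covers, a neighbour included. The 15 with a match in the promoter window had a median fold change of -0.17 with 12 below 0 (80.0%), and the 22 without one had -0.18 with 21 below 0 (95.5%). Over start peaks of other genes the values were -0.12 (73.1% of 372 below 0) with a match and -0.09 (65.1% of 7545) without. These are descriptions of letters in a window, with no test.

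A further 41 replication genes outside the 45, such as chromatin assembly factors, topoisomerases, fork protection and cyclin A-Cdk2 genes, were described in the same way. Their 56 tested gene-end peaks had a median fold change of -0.15 with 41 below 0 (73.2%, and 37 to 52 peaks under the 5 other scalings), and limma called none. An unadjusted p under 0.05 was reached by 10 (17.9%, all lower), against 13.8% of the gene-end peaks outside the 45 genes. The block called 3 lower (5.36%, beside 5.15%), and voom called 2 lower under median-of-ratios scaling (3.57%, beside 1.94%) and 6 lower under totals (10.7%, beside 7.22%). Over all 169 tested peaks 2 were called higher and 3 lower (2.96%), in 4 of the 41 genes, against 6.72% of all tested peaks. With the block 8 were called higher and 13 lower (12.4%), against 18.3%. Voom called 9 higher and 8 lower under median of ratios (5.33% and 4.73%), against 9.98% and 3.99% of all tested peaks. Under totals it called 5 higher and 19 lower (2.96% and 11.2%), against 5.01% and 9.87%. A peak inside Uhrf1, which carries DNA methylation through replication, rose by 0.53 ± 0.11 (SE, n = 3 and 3), with mean signals of 3040 (quiescent) and 2106 (proliferating) and an adjusted p of 0.031. Top1, the topoisomerase that relieves twist ahead of the fork, had a peak inside the gene that rose by 1.32 ± 0.20 (adjusted p = 0.011) and a weak one 51366 bp away that fell by 3.63 ± 0.77 (adjusted p = 0.028). A peak nearest to Dtl had a fold change of -2.18 ± 0.50 (adjusted p = 0.036), and one nearest to Chaf1b had -1.31 ± 0.21 (adjusted p = 0.013), both called lower.

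The count of gene-end peaks depended on the window. In the window used above, 55 of 65 tested gene-end peaks lay below 0, with a median of -0.19. Widened to 3 kb, the window held 85 such peaks, of which 66 lay below 0, with a median of -0.18. The following peaks lie nearest to each limit of the rule as used above. The farthest peak taken in by distance was 82280 bp from Rfc3, with a mean signal of 440.3 ± 87.3 in quiescent and 293 ± 27.2 in proliferating samples (SD, n = 3), and the nearest one left out was 110758 bp from Prim2, with 216 ± 17.3 and 175 ± 24.6. The gene-end peak farthest from an end was that of Lig1 at 931 bp, with 95.5 ± 18.3 and 107 ± 18.0, and the closest peak outside the window was one of Pold1 at 1192 bp, with 437 ± 114 and 428 ± 63.4.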

How the data were processed

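Open chromatin of bone marrow B-cells from PEtg mice was measured in 3 quiescent (H2B-GFP high) and 3 proliferating (H2B-GFP low) samples. A commercial kit served for library preparation and every sample was sequenced in a pair of runs, per the labels' protocols. Per the submitters' processing notes, Bowtie2, SAMtools, MACS2 and the build mm10 were used. The sources used here name no versions, no transposase offset and no scaling. The deposited table holds scaled signal values for 97124 peaks of a list shared by the samples, with near-equal totals, and coordinates are printed as deposited.

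Peaks were assigned with RefSeq genes of GRCm38.p6, the assembly that mm10 holds. Fold changes came from limma 3.58.1 under R 4.3.3, fitted to log2(signal + 1) with the trend option. The added 1 understates changes of weak peaks. The weakest 10% of peaks were left out (87411 tested). Data simulated at this depth had a fixed spread between samples, no shift of a whole sample, and changes only at the stronger peaks. There, 36 of 50 peaks lowered 2-fold and 42 of 50 raised 2-fold were called. All 50 changed 4-fold in each direction were called, with 3 false calls among 87211 unchanged peaks. The real samples did shift, so these counts give no rate of missed or false calls for the real data. Reads per peak (median 27 to 179 per sample) were estimated from the steps between low values, and in the range of 1 to 1000 reads 95.2% to 100.0% of values lay within 0.1 of a whole number. Replicate numbers of the titles are shared by both groups. Deviations of same-numbered samples from their group means correlated at 0.43, 0.285 and 0.21. Differently numbered pairs ran from -0.361 to 0.22, the highest being quiescent sample 2 with proliferating sample 3. These values do not settle whether samples are paired by number. Counts from the fit with the replicate number as a block are therefore given beside the main counts.

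Named are all called peaks, the lowest and highest strongest gene-end peak of each role, and 11 set genes (Mcm2 to Mcm7, Cdc6, Cdt1, Pcna, Ccne1 and Ccne2). The members and gene lists were chosen with earlier results of these data known. Alternatives were another pseudocount (4), no filter, 3 scalings, the block, each sample left out, voom on estimated reads, a 3 kb window, starts alone and other rules of assignment.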

Additional observations from a re-analysis of the deposited data

How the results depend on the processing

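Over all tested peaks, 3501 were called higher and 2375 lower in quiescent cells. The fit with the replicate block called 8885 and 7114, of the peaks of replication genes 15 higher and 11 lower (6 and 3 without the block), and at their gene ends 0 higher and 7 lower (0 and 2). It kept all 9 calls among these peaks and added 17, of which 5 lay at gene ends, and of the 34 named peaks it added those of Mcm6, Gins2, Prim1 and Rpa1 and changed no other call. Voom on estimated reads, added after the data were seen, called 8724 higher and 3486 lower under median-of-ratios scaling. Of these calls 71.4% were higher, against 59.6% on deposited values. Voom called 14 and 9 peaks of replication genes there (7.69% and 4.95%, beside 9.98% and 3.99% of all tested peaks). Under totals it called 4381 and 8626, or 33.7% higher. Among peaks of replication genes it called 8 and 19 (4.4% and 10.4%, beside 5.01% and 9.87%), with 7 lower gene-end peaks. Totals moved the median of all tested peaks from -0.01 to -0.26 and that of the 65 gene-end peaks to -0.39, so that the latter lay 0.10 below other gene-end peaks, as under median of ratios. That distance was 0.11 on deposited values and 0.070 to 0.19 over all refits of the 65 peaks. Counting starts alone gave 0 lower gene-end calls with limma. The counts and the median under pseudocount 4, no filter, equal totals, median of ratios, quantile normalisation, the 3 kb window and the 2 other rules of assignment stayed within 1.5 times, or within 1 SD between samples.

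Leaving out each sample gave 0 to 5572 peaks called higher and 0 to 3077 lower, 0 to 8 and 0 to 7 among peaks of replication genes, and 0 to 5 lower at their gene ends. No peak was called without quiescent sample 3, where limma still gave 16512 peaks an unadjusted p under 0.05. Both directions together, 6505 and 161 peaks were called on leaving out quiescent samples 1 and 2, and 8241, 790 and 1160 on leaving out proliferating samples 1, 2 and 3. The cause was not tested.

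Of 34 named peaks, 10 changed sign in some refit, none of them called in any. Without single samples the fold change ran from -0.044 to 0.128 for Cdc25a, -0.115 to 0.159 for Rfc2, -0.085 to 0.066 for Cdc45, -0.076 to 0.175 for the Cdc6 start, -0.108 to 0.059 for Pold2, -0.514 to 0.038 for Mcm2 and -0.291 to 0.068 for Cdt1. Voom with median of ratios turned Mcm7 (0.095), Cdc45 (0.352), Orc6 (0.126), Pold2 (0.011), Pcna (0.029) and Cdt1 (0.039), voom with totals turned Rfc2 (-0.085) and Cdc45 (0.087), and median of ratios on deposited values turned Cdc45 (0.0089). The planned voom and quasi-likelihood tests with TMM scaling were not run, because too few values gave whole reads by a common step. Depth limits the weak peaks most: the called peak inside Rfc1 rests on 5 estimated reads in proliferating sample 1.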

Other observations

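Peaks inside replication genes, away from their ends, had a median fold change of 0.07 (n = 73, 47.9% below 0), against 0.02 at other peaks inside genes and away from ends (n = 39537, 48.7% below 0). Limma called 5 higher (6.85%) and 0 lower, beside 4.41% and 2.91% of those other peaks. With the replicate block, 13 were called higher (17.8%) and 2 lower (2.74%), beside 11.1% and 8.69%, and with voom and totals 7 higher (9.59%) and 4 lower (5.48%), beside 5.19% and 10.4%. The difference from other peaks was not tested. Prim2 alone held a pair of the 5 limma calls. With the block it held both of the lower calls and some of the 13 higher ones. The following were named after their values were seen. Rfc1 held 3 of the 13, of which the strongest (chr5:65325480-65327142) had signals of 1832, 1992 and 1641 in quiescent and 1304, 1432 and 1413 in proliferating samples. Inside Mcm5 a peak at chr8:75119289-75120414 had 337, 600.1 and 622 against 259, 312 and 297, where its start had a fold change of -0.19. Inside Lig1 (chr7:13302506-13303798) the signals were 558, 759 and 802 against 542, 356 and 429.8, and inside Pole2 (chr12:69216103-69217025) 297, 358 and 343 against 223, 215 and 216. In these 4 peaks the groups did not overlap, and without the block limma gave adjusted p of 0.075, 0.082, 0.079 and 0.057.

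Prim2, with 29 peaks, held peaks of both directions. Of other peaks inside genes and away from ends, the block called 11.1% higher and 8.69% lower. Whether Prim2 differs from these was not tested. With the block, its peaks at chr1:33562638-33564861 (1101, 1496 and 1318 against 1577, 2331 and 1764) and chr1:33593898-33596726 (1111, 1003 and 946 against 1295, 1531 and 1221) were called lower, while chr1:33582546-33583752, which lies between them, was called higher (183, 394 and 443 against 94.1, 174 and 155). None of the 3 passed without the block (adjusted p of 0.1, 0.10 and 0.077).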
